A study of Mus musculus with 6 samples.

Results

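The nuclear genes for the subunits of the oxidative phosphorylation (OXPHOS) complexes I to V were examined for acetylated histone H3 (H3ac) at their start sites in mouse bone mesenchymal stem cells (MSCs). The members were chosen by symbol alone, as the protein-coding autosomal genes of the GENCODE vM21 annotation (build mm10) named Nduf with a subunit letter and number, Sdha to Sdhd, Uqcr, Cox4 to Cox8 or Atp5. Of 20698 autosomal protein-coding genes, 81 carried such a symbol: 35 of complex I, 4 of complex II, 8 of complex III, 17 of complex IV and 17 of complex V. A gene was matched to each region of the H3ac table that contained, or lay within 1 kb of, one of its protein-coding start sites. Of the 81 genes, 75 had a region, each gene had a single one, and no pair of members shared a region, so that 75 of the 24431 regions in the table are described. Complexes were assigned by the gene symbol, which places Ndufa4, now known as a subunit of complex IV, under complex I, and which leaves out the genes of the mitochondrial genome.

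H3ac was measured by CUT&RUN, in which an antibody guides a nuclease to marked chromatin inside permeabilised cells and the released fragments are sequenced. Bone MSCs were grown at 2% oxygen in 3 groups of 2 libraries each. The Young group held untreated cells of mice aged 3 to 5 months, the Old group untreated cells of mice aged 18 to 22 months, and the OldAcetate group cells of mice aged 18 to 22 months given 5 mM sodium acetate for 3 days. Strain and genotype are not named in the labels. It is also not stated whether the libraries of a group came from separate animals or cultures, so p-values measure the spread between these libraries, which may be technical. In a mixed culture, fewer cells with acetylated H3 at a gene and less H3ac per cell cannot be told apart.

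Oxidative phosphorylation takes place in the inner mitochondrial membrane. Complex I (NADH dehydrogenase) and complex II (succinate dehydrogenase, also an enzyme of the TCA cycle) pass electrons to ubiquinone, complex III (cytochrome bc1) passes them to cytochrome c, complex IV (cytochrome c oxidase) hands them to oxygen, and complex V (ATP synthase) uses the resulting proton gradient to make ATP. Most subunits are encoded in the nucleus, where the transcription factors NRF1 and GABP are known regulators of many of these genes, and a few complex IV subunits exist as tissue-specific isoforms. MSCs are known to rely largely on glycolysis while they remain undifferentiated and to use more oxidative phosphorylation when they become osteoblasts. H3 acetylation at a start site is a mark of active or permissive promoters.

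The values are reads scaled to sequencing depth (RPM, per 1e6 reads of the library), and library totals recovered from them ran from 2163351 to 3039481 reads. Of those reads, the regions held 57.8% to 64.8% in the Young libraries, 56.3% to 57.3% in the OldAcetate libraries and the smallest share, 45.9% to 49.9%, in the Old libraries. A member region held between 8 and 452 reads in a library, with a median of 41 reads, at which counting error alone is 15.6% of the value. Start-site regions were present for 11 of 11 bone MSC markers and for 0 of 4 endothelial markers. Of 8 hematopoietic and macrophage markers, 3 had one, namely Cd68, Csf1r and Spi1. Ptprc, Itgam, Adgre1 and Cd3e were among those with none. The summed H3ac of the 3 hematopoietic marker regions ranged from 7.94 to 8.74 RPM per kb in Young, from 5.58 to 6.59 in Old and from 6.03 to 7.32 in OldAcetate. That of the 11 bone MSC marker regions was likewise lowest in Old, with 31.6 to 37.3 RPM per kb in Young, 26.3 to 28.5 in Old and 33.9 to 34.6 in OldAcetate. The part of other cell types in the results was not tested.

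Promoter sequences show what the acetylated start sites of these genes look like. RefSeq promoters (GRCm38.p6) were matched for 61 of the 75 members with a region, 2 of them through an older symbol, and the 250 bases before the start site were read on the strand of the gene. The letters GCGCANGCG (NRF1) stood in 13 of the 61 windows, or 21.3%, against 11.5% of 9510 promoters of autosomal genes with a region. CCGGAAG (ETS family, which includes GABP) stood in 11, or 18.0% against 13.9%, and AAGGTCA (ERR family) in 5, or 8.20% against 2.53%. GGGCGG (Sp family) was less common than among the other promoters, in 23 windows or 37.7% against 60.8%, and GATGGCG (YY1) was found in 1, or 1.64% against 3.54%. Over all 15680 autosomal promoters of this length, the shares were 7.63% for the NRF1 letters, 9.62% for the ETS letters, 2.67% for the YY1 letters, 44.8% for the Sp letters and 3.53% for the ERR letters. All letters were searched on both strands, 2 of 77 matches overlapped a match of another motif, and 22 of the 61 windows held none of them. A match is a description of letters and not of binding.

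Stretches of these windows that no annotated exon covers are shown for the promoters with NRF1 or ETS letters in complexes I to V, the matches in capitals. They belong to Ndufs5 (an accessory subunit of complex I, chr4:123718203-123718436), Sdhd (the small membrane anchor of complex II, chr9:50603850-50603909, part of the gap to the divergent Timm8b), Uqcr11 (a small subunit of complex III, chr10:80406831-80407071), Cox6a1 (the widespread isoform of a complex IV subunit, chr5:115348982-115349129) and Atp5h (a subunit of the peripheral stalk of complex V, chr11:115419963-115420127), all on the minus strand.
Ndufs5: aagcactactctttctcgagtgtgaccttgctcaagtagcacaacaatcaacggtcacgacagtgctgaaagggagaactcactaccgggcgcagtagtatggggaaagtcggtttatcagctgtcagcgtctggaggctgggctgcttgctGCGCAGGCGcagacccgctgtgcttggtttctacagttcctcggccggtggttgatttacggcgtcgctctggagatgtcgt
Sdhd: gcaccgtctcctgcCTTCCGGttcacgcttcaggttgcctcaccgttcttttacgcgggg
Uqcr11: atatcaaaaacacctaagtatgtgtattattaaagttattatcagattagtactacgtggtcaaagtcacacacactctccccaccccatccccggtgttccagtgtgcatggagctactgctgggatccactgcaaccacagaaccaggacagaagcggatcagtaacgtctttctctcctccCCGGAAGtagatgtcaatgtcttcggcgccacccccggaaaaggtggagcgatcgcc
Cox6a1: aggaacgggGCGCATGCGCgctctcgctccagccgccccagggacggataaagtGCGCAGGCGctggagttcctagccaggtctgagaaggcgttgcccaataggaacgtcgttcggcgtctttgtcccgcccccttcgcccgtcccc
Atp5h: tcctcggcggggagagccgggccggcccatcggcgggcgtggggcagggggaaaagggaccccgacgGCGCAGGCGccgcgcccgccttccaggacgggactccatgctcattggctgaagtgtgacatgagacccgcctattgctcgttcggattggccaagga
The Sdhd stretch carries the ETS letters in reverse complement, and the first capital run of Cox6a1 reads as the NRF1 letters on both strands.

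Start sites with a region were far more common among the members than among other genes. A region was found at 75 of 81 members (92.6%), against 12182 of all 20698 autosomal protein-coding genes (58.9%), and each of the 75 regions contained the start site itself. By complex, the count was 34 of 35 in complex I, 4 of 4 in complex II, 8 of 8 in complex III, 12 of 17 in complex IV and 17 of 17 in complex V. Each region name also holds a code of the letters AC, O and Y, which the labels do not define and which match the initials of the 3 groups. The code AC+O+Y was carried by 72 of the 75 regions (96.0%, against 91.6% of 10877 autosomal start-site regions), and the other 3, those of Ndufa12, Ndufs4 and Atp5o, carried AC+Y.

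The 6 genes with no region were 5 complex IV isoforms and 1 complex I subunit. Cox6a2, Cox7a1 and Cox8b are the isoforms of heart and skeletal muscle, and their nearest regions lay 30114, 7807 and 16446 bp away. Cox7b2 and Cox8c are known mainly from testis, and their nearest regions lay 615796 and 18816 bp away. For each muscle isoform, the widespread partner had a region. Cox6a1 measured 30.9 and 29.0 RPM in Young, 20.3 and 19.9 RPM in Old, and 25.5 and 35.9 RPM in OldAcetate. For Cox7a2 the values were 16.8 and 12.3 RPM in Young, 13.4 and 11.1 RPM in Old, and 13.8 and 14.6 RPM in OldAcetate. Cox8a gave 15.1 and 11.8 RPM in Young, 10.6 and 6.36 RPM in Old, and 17.5 and 13.8 RPM in OldAcetate. OldAcetate lay above Old in all 3 partners, as in 47.1% of all regions and 58.3% of start-site regions. Old lay below Young in Cox6a1 and Cox8a, as in 60.2% of all regions and 65.9% of start-site regions. Among the tissue isoforms, Cox6b2, known from testis, and Cox4i2, known from lung and from low oxygen, were exceptions that had regions. Ndufs7, a core iron-sulfur subunit of complex I that every respiring cell uses, was the remaining gene with no region, and its nearest one lay 9549 bp away.

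The windows of the isoform pair Cox8a and Cox8b are shown with that of Atp5j (a peripheral stalk subunit of complex V). Atp5j held the most CG dinucleotides among the 61 matched members with a region. The windows are Atp5j chr16:84835626-84835875, Cox8a chr19:7217617-7217866 and Cox8b chr7:140900447-140900696, all on the minus strand, with CG dinucleotides in capitals.
Atp5j: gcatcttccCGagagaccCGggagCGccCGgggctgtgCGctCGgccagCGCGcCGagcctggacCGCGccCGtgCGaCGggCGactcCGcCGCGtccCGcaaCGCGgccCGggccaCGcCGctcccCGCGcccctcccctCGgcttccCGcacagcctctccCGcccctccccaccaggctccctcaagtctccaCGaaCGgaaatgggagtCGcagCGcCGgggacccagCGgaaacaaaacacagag
Cox8a: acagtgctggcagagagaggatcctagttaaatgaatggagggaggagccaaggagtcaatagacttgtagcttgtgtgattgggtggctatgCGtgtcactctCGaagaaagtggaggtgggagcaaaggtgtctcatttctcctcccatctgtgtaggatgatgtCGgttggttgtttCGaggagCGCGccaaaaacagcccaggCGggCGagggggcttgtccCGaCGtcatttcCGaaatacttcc
Cox8b: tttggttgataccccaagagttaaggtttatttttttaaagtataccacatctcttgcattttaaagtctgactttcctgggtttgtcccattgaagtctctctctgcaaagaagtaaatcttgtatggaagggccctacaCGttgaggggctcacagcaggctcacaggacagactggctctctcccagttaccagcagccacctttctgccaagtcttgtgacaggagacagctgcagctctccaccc
Among the 61 matched members with a region, CG dinucleotides per window ran from 4 to 35 with a median of 14, against a median of 16 for promoters of all autosomal genes with a region, and median GC content was 56.4% against 60.4%. Of the matched genes with no region, Cox8b held 1 CG dinucleotide, Cox7a1 4, Cox7b2 9 and Ndufs7 20. Cox7a1 and Cox7b2 thus lay within the range of the members with a region, and Ndufs7 lay above their median. Whether CG content bears on having a region was not tested.

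**Figure D1:**
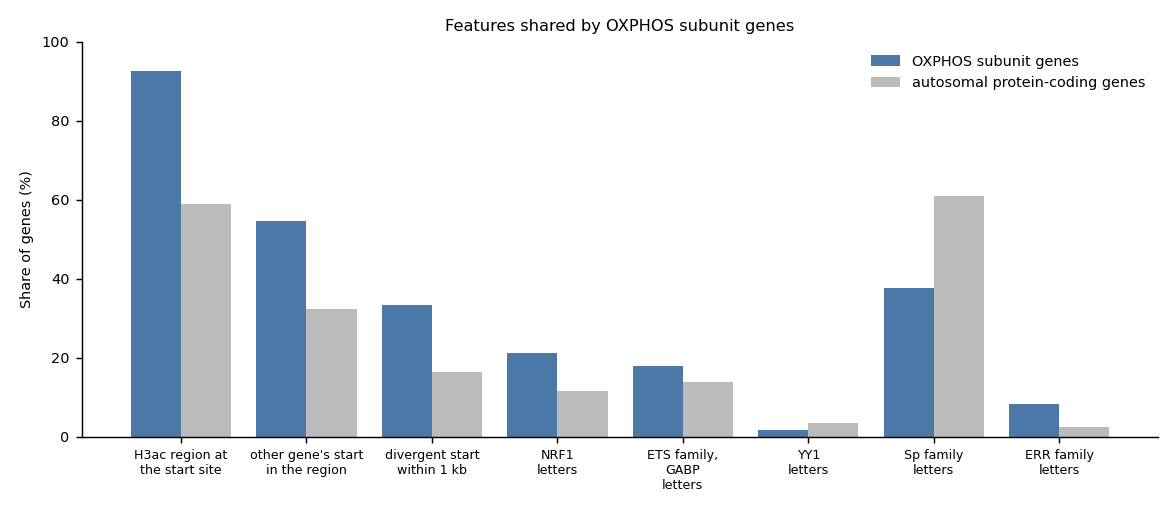
Bars give the share of genes in percent for OXPHOS subunit genes (blue) and for autosomal protein-coding genes (grey). The first pair counts all genes, the next pairs count genes with a region, and the letter pairs count those with a matched RefSeq promoter. Members stood above other genes for regions (92.6% against 58.9%), for another gene's start in the region (54.7% against 32.3%) and for NRF1 letters (21.3% against 11.5%), and below them for Sp letters (37.7% against 60.8%).

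Many members shared their region with another gene. Of the 75 regions, 41 (54.7%) also lay at the start site of another protein-coding gene, against 3938 of 12182 autosomal genes with a region (32.3%). A divergent start site of another gene within 1 kb upstream was found for 25 members (33.3%) and for 1984 of all such genes (16.3%). The closest pairs were Ndufs1 and Eef1b2 with 3 bp between start sites, Ndufa7 and Rps28 with 10 bp, Ndufb9 and Tatdn1 with 26 bp, and Sdha and Ccdc127 with 29 bp. Several partners belong to translation or mitochondria, such as Mrpl36, a mitochondrial ribosomal protein gene 51 bp from Ndufs6, and Timm8b, a mitochondrial import gene 98 bp from Sdhd. The partner of Atp5j, 686 bp away, was Gabpa, the gene of the DNA-binding GABP subunit. In these regions the H3ac of the member and of its neighbour cannot be separated.

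H3ac per length at the members was close to that of other start-site regions. The median density was 3.07 RPM per kb over the 75 members (mean of the 6 libraries) and 3.05 RPM per kb over 10877 autosomal start-site regions. Of the members, 38 lay above that median, 17 above the 75th percentile (3.56 RPM per kb) and 10 below the 25th (2.62 RPM per kb). The members' regions were shorter, with a median length of 4000 bp against 6000 bp and a range from 2500 to 45500 bp, and 4 members lay in regions of 20 kb or more. By complex, the median density was 3.03 RPM per kb in complex I, 3.68 in complex II, 3.53 in complex III, 2.98 in complex IV and 2.98 in complex V.

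**Figure D2:**
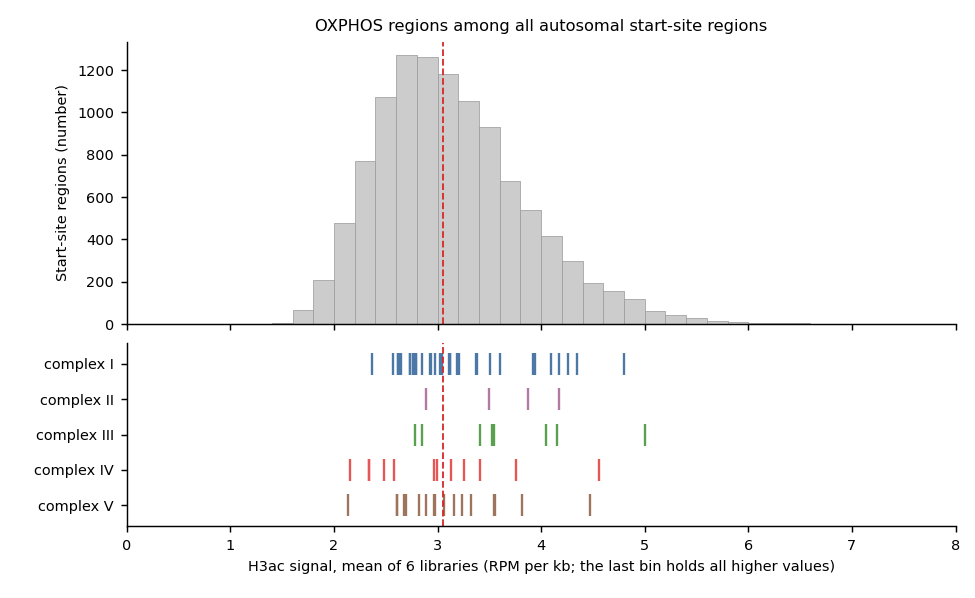
The upper panel counts the 10877 autosomal start-site regions by H3ac density (RPM per kb, mean of 6 libraries), with their median of 3.05 as a dashed line, and the lower panel marks each of the 75 members by complex on the same axis. Members span 2.13 (Atp5h) to 5.00 RPM per kb (Uqcrb), inside the range of the other regions.

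Within complex I, the densest region was that of Ndufs6, a subunit with a zinc site, and the least dense that of Ndufv1, the flavoprotein that accepts electrons from NADH. Ndufs6 (ENSMUSG00000021606.8, chr13:73327001-73332500) measured 29.6 and 28.2 RPM in Young, 25.4 and 24.7 RPM in Old, and 30.6 and 20.0 RPM in OldAcetate, or 4.80 RPM per kb over the 6 libraries. Ndufv1 (ENSMUSG00000037916.14, chr19:4011001-4014000) measured 8.23 and 8.99 RPM in Young, 5.08 and 5.57 RPM in Old, and 8.06 and 6.67 RPM in OldAcetate, or 2.37 RPM per kb. Between them lay Ndufs1, the large iron-sulfur subunit, with 26.0 and 20.0 RPM in Young, 14.3 and 15.5 RPM in Old, and 19.5 and 22.5 RPM in OldAcetate. Each Young library was above each Old library on the RPM scale, as in 25 of the 34 complex I regions. That share was 73.5%, against 60.2% of all regions and 65.9% of start-site regions. Ndufa4l2, a paralogue of Ndufa4 that is known to be induced in low oxygen, had 51.3 and 42.9 RPM in Young, 42.5 and 41.0 RPM in Old, and 50.1 and 52.1 RPM in OldAcetate in a region of 15000 bp. Its partner Ndufa4 had 20.7 and 20.0 RPM in Young, 19.0 and 15.5 RPM in Old, and 18.1 and 21.7 RPM in OldAcetate. In both genes the Old values were below the Young values, and in Ndufa4l2 they were also below the OldAcetate values. Ndufa9, an accessory subunit at the junction of the arms, held 9.21 and 10.6 RPM in Young, 8.32 and 9.55 RPM in Old, and 8.74 and 8.34 RPM in OldAcetate. Ndufb8, an accessory subunit of the membrane arm, held 11.2 and 6.54 RPM in Young, 8.78 and 5.17 RPM in Old, and 13.4 and 8.76 RPM in OldAcetate, where replicate 1 was the higher library in each group.

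Complex II consists of 4 nuclear subunits, and all had regions. Sdha, the flavoprotein that oxidises succinate, measured 14.5 and 19.2 RPM in Young, 11.6 and 12.3 RPM in Old, and 13.4 and 12.9 RPM in OldAcetate. Sdhb, the iron-sulfur subunit, had the lowest density of the complex (2.89 RPM per kb) and 31.3 and 29.4 RPM in Young, 20.3 and 23.1 RPM in Old, and 23.2 and 20.0 RPM in OldAcetate. Its OldAcetate values lay below both Young values and beside the Old values. The membrane anchors Sdhc and Sdhd measured 10.5 and 14.7 RPM in Young, 11.1 and 13.9 RPM in Old, and 18.1 and 12.9 RPM in OldAcetate and 16.8 and 18.0 RPM in Young, 15.3 and 13.9 RPM in Old, and 17.1 and 19.2 RPM in OldAcetate, and Sdhd had the highest density, 4.18 RPM per kb.

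In complex III, Uqcrb, a subunit near the ubiquinone site, had the highest density of all 75 members, 5.00 RPM per kb in a region of 2500 bp, with 16.5 and 10.2 RPM in Young, 8.32 and 11.9 RPM in Old, and 16.8 and 11.3 RPM in OldAcetate. The Rieske iron-sulfur subunit gene Uqcrfs1 measured 18.1 and 11.0 RPM in Young, 17.1 and 10.7 RPM in Old, and 13.1 and 15.0 RPM in OldAcetate, and the 3 groups overlapped. Values of the core subunits Uqcrc1 and Uqcrc2 were not tested against each other. Uqcrc2 gave 31.6 and 28.2 RPM in Young, 18.5 and 21.9 RPM in Old, and 28.9 and 28.8 RPM in OldAcetate, both Young values above both Old values. Uqcrc1, the lowest in density with 2.78 RPM per kb, gave 9.54 and 5.31 RPM in Young, 6.47 and 9.15 RPM in Old, and 5.38 and 5.84 RPM in OldAcetate. Young and Old did not separate there, and the Uqcrc1 region held only 13 to 29 reads in a library. Uqcrh, the hinge subunit of cytochrome c1, held 31.6 and 29.4 RPM in Young, 22.6 and 24.7 RPM in Old, and 27.9 and 25.9 RPM in OldAcetate.

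Complex IV members ranged from 4.56 RPM per kb at Cox7a2l, a factor of respiratory supercomplexes, to 2.16 RPM per kb at Cox4i2. Cox4i1, the widespread isoform of subunit IV, measured 25.0 and 19.6 RPM in Young, 23.1 and 18.3 RPM in Old, and 21.8 and 18.4 RPM in OldAcetate. Cox4i2 measured 46.4 and 43.7 RPM in Young, 31.9 and 23.9 RPM in Old, and 30.2 and 30.9 RPM in OldAcetate, the OldAcetate values lying with the Old values and below the Young values. Cox5a and Cox5b, subunits beside it in the complex, measured 12.2 and 17.6 RPM in Young, 15.3 and 11.1 RPM in Old, and 17.1 and 15.8 RPM in OldAcetate and 7.90 and 8.99 RPM in Young, 13.4 and 5.97 RPM in Old, and 14.8 and 7.51 RPM in OldAcetate. In both genes Young and Old overlapped, and in Cox5a both OldAcetate values were above both Old values. The small subunit genes Cox6b1 and Cox6c measured 6.58 and 7.35 RPM in Young, 8.32 and 7.16 RPM in Old, and 10.1 and 5.42 RPM in OldAcetate and 12.8 and 15.5 RPM in Young, 7.86 and 11.1 RPM in Old, and 10.1 and 9.59 RPM in OldAcetate. Cox7c, another small subunit gene, measured 6.91 and 13.1 RPM in Young, 6.47 and 6.76 RPM in Old, and 14.8 and 8.34 RPM in OldAcetate. Cox6c and Cox7c had both Old values below both Young values, and in Cox6b1 Young and Old overlapped. Cox6b2, the testis isoform with a region, measured 10.9 and 5.72 RPM in Young, 4.16 and 7.56 RPM in Old, and 9.74 and 8.34 RPM in OldAcetate. Cox7a2l held 23.4 and 20.0 RPM in Young, 11.1 and 17.5 RPM in Old, and 22.8 and 14.6 RPM in OldAcetate, where the OldAcetate libraries lay on either side of the second Young library.

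Complex V members ranged from 4.47 RPM per kb at Atp5j to 2.13 RPM per kb at Atp5h, the lowest of all 75. The catalytic beta subunit gene Atp5b measured 49.7 and 48.2 RPM in Young, 52.2 and 42.6 RPM in Old, and 66.9 and 52.1 RPM in OldAcetate, and the alpha subunit gene Atp5a1 measured 12.5 and 13.1 RPM in Young, 10.6 and 7.56 RPM in Old, and 14.8 and 15.0 RPM in OldAcetate. The gamma and delta subunit genes Atp5c1 and Atp5d, of the rotating central stalk, lay in long regions of 17500 and 45500 bp that hold start sites of 1 and 5 other genes. Atp5c1 measured 68.1 and 63.3 RPM in Young, 43.5 and 50.9 RPM in Old, and 61.2 and 62.1 RPM in OldAcetate. Atp5d measured 146 and 136 RPM in Young, 107 and 105 RPM in Old, and 152 and 125 RPM in OldAcetate over the longest region of any member. Atp5k, a small membrane subunit, gave 9.21 and 8.99 RPM in Young, 6.01 and 10.7 RPM in Old, and 9.74 and 8.76 RPM in OldAcetate, and Atp5s, a coupling factor gene kept by its symbol, gave 16.1 and 10.2 RPM in Young, 11.6 and 10.7 RPM in Old, and 22.8 and 15.8 RPM in OldAcetate.

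**Figure D3:**
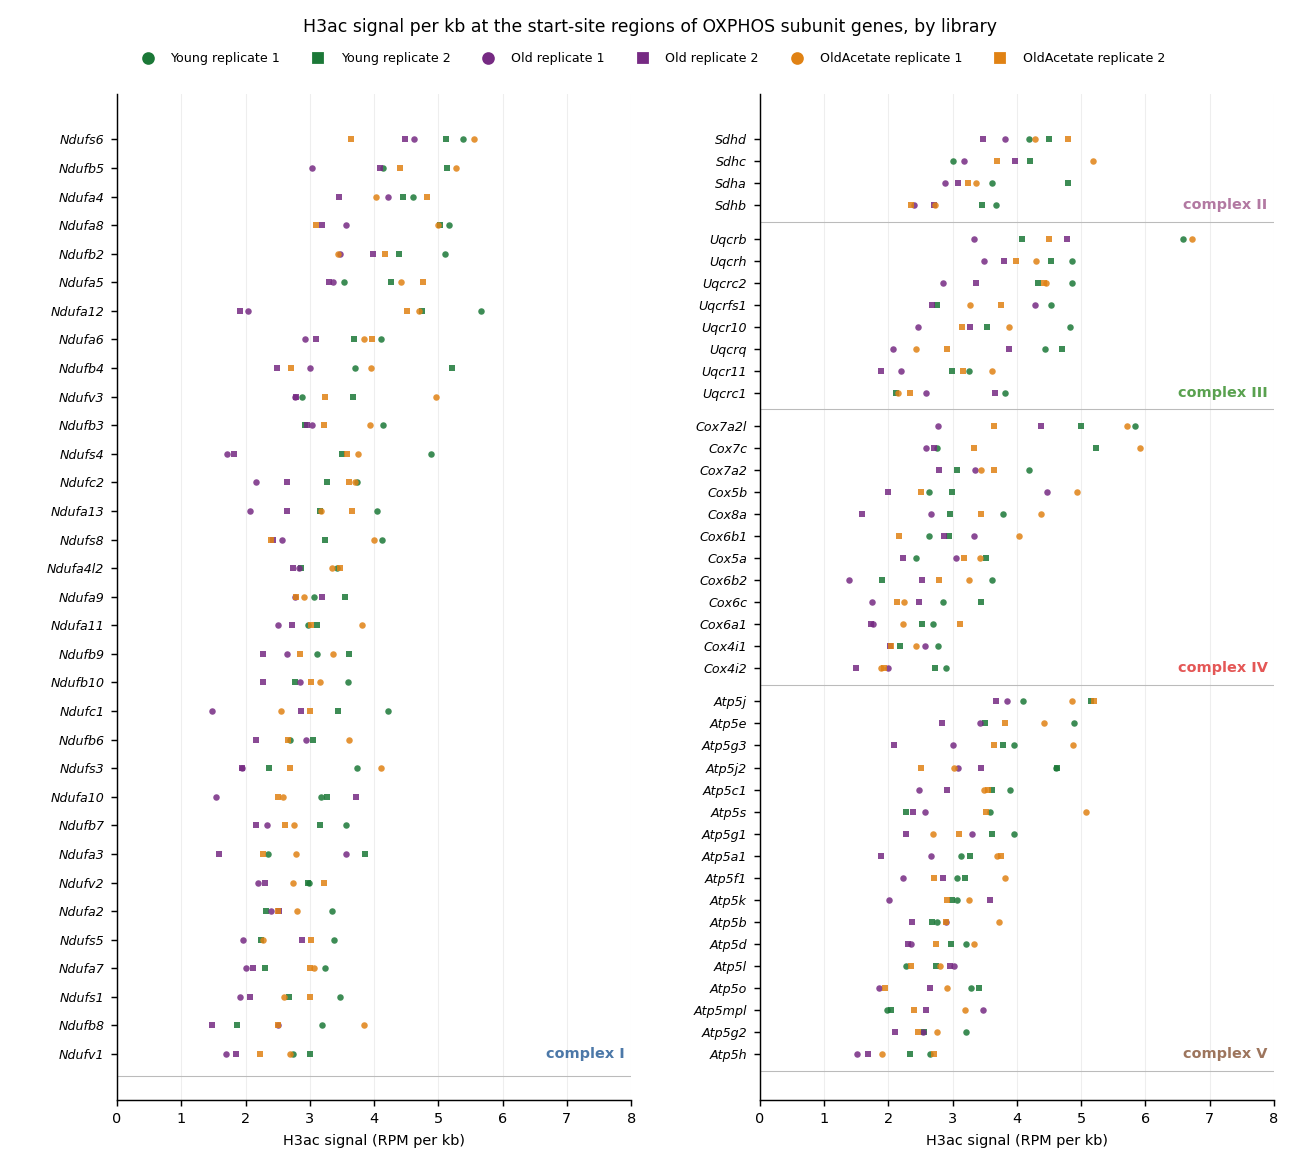
Each row is a member with a region (1 member is not shown), ordered by density within its complex, and the points give H3ac in RPM per kb in the 6 libraries, circles for replicate 1 and squares for replicate 2, green for Young, purple for Old and orange for OldAcetate. Old libraries lie to the left in most rows, with clear gaps at Ndufa12 (4.77 and 5.08 RPM in its region against 11.3 to 14.1 RPM in the other libraries) and Ndufs4.

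The first comparison, Old against Young, asks whether H3ac at these genes differs with age. On the values as given, the members were lower in Old as a group of genes, and so were the regions of the whole table. The median over the 75 members was 17.1 and 17.6 RPM in the Young libraries and 13.4 and 13.9 RPM in the Old libraries, which did not overlap. The median log2 change of the members was -0.40 on log2(RPM + 0.5), with a replicate SD of that median of 0.11, beside -0.35 over all 24431 regions and -0.36 over the start-site regions. The change was below zero at 70 of 75 members (93.3%, against 92.1% of all regions and 94.0% of start-site regions). The Old libraries lay wholly below the Young libraries at 51 members (68.0%, against 60.2% of all regions and 65.9% of start-site regions). By complex, the median change was -0.39 in complex I (below zero at 34 of 34 members), -0.36 in complex II (4 of 4), -0.44 in complex III (7 of 8), -0.48 in complex IV (10 of 12) and -0.39 in complex V (15 of 17).

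With the values as given, H3ac fell at 10 members in Old against Young by limma (adjusted p below 0.05 over all regions). That is 13.3% of the members, against 9.50% of all regions and 11.7% of start-site regions lower. The 10 were 5 of complex I (among them Ndufa12, Ndufs4, Ndufb7 and Ndufa13), 3 of complex V (Atp5h, Atp5d, Atp5c1), Uqcr11 of complex III and Cox4i2 of complex IV, and none was higher. Of the 41 member regions shared with another gene's start site, 7 were called (17.1%, against 13.2% of shared start-site regions). There, the member and its neighbour cannot be separated. Of the 34 unshared ones, 3 were called, Ndufa12, Ndufs4 and Cox4i2 (8.82%, against 11.4% of unshared start-site regions). The edgeR test on the recovered reads gave 11, with these 10 and Ndufs8. The count rested on Young replicate 1: without it 0 of the 10 remained (9 regions in the whole table), and without either OldAcetate library, which lends its spread to the fit, 4 remained (Atp5h, Cox4i2, Ndufa12 and Ndufs4), or 5.33% against 2.64% and 2.96% of all regions. Without Old replicate 2 the count was 6, with 4 of the 10 among them (8.0% of members, against 2.03% of all regions). Without Old replicate 1 it was 7, with 5 of the 10 among them, and the members' share of 9.33% was then below the 13.3% of all regions. The share of reads inside regions moved in the same direction, from 57.8% and 64.8% in Young to 45.9% and 49.9% in Old, and its part in these calls was not tested beyond the scaling that follows.

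The largest falls were at 2 complex I genes. Ndufa12 (ENSMUSG00000020022.17, chr10:94197001-94199500), an accessory subunit at the NADH-oxidising arm, held 14.1 and 11.8 RPM in Young, 5.08 and 4.77 RPM in Old, and 11.8 and 11.3 RPM in OldAcetate, in whole reads 43 and 29, 11 and 12, and 35 and 27. Both Old libraries lay below every other library. The log2 change from Young to Old was -1.31 ± 0.31 (SE) as given (limma adjusted p = 0.00977), to 37.9% of the Young mean. Ndufs4 (ENSMUSG00000021764.8, chr13:114386001-114389500), another subunit of that arm whose loss is known to cause complex I deficiency, held 17.1 and 12.3 RPM in Young, 6.01 and 6.36 RPM in Old, and 13.1 and 12.5 RPM in OldAcetate. Again the Old libraries were the 2 lowest, and the log2 change was -1.16 ± 0.29 (limma adjusted p = 0.0129), to 42.1% of the Young mean. Both genes are among the 3 members whose region code lacks the letter O, and neither region holds the start site of another gene. The labels do not define that code. If it marks the groups in which a region was found, low Old values there are partly built in, and this was not tested. The code is thus not separate support for the falls.

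The other called members changed by less than 1 log2 unit. Cox4i2 (chr2:152752501-152768500) went from 46.4 and 43.7 RPM in Young to 31.9 and 23.9 RPM in Old, a log2 change of -0.70 ± 0.19 (limma adjusted p = 0.0170). Atp5h (chr11:115411001-115429000) went from 47.7 and 42.1 RPM to 27.3 and 30.2 RPM, a change of -0.63 ± 0.18 (limma adjusted p = 0.0222). Uqcr11 (chr10:80397001-80409000) went from 39.2 and 35.9 RPM to 26.3 and 22.7 RPM, a change of -0.61 ± 0.19 (limma adjusted p = 0.0301). In these 3 genes the Old libraries lay wholly below the Young libraries, and likewise in Ndufb7, Ndufa13, Atp5d and Atp5c1. That held for 60.2% of all regions and 65.9% of start-site regions. Ndufb7, an accessory membrane-arm subunit, had 55.3 and 49.0 RPM in Young and 36.1 and 33.4 RPM in Old (-0.58, limma adjusted p = 0.0266). Ndufa13, also known as the cell death regulator GRIM-19, had 42.4 and 33.1 RPM and 21.7 and 27.8 RPM (-0.60, limma adjusted p = 0.0355). Atp5d and Atp5c1 had changes of -0.41 and -0.48 (limma adjusted p of 0.0290 and 0.0397), nearer to the -0.35 of all regions.

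The libraries were then scaled by subtracting from each its median deviation from the region means. With these values, 0 of 75 members were called in Old against Young by limma, beside 0.00819% of all regions. At an unadjusted p under 0.05 there were 6 members, and edgeR gave 0 (6 unadjusted) and DESeq2 0 (2 unadjusted). The members' median change was -0.05 with a replicate SD of 0.14, negative at 43 and positive at 32. The negative share was 57.3%, against 50.8% of all regions and 51.3% of start-site regions. Old libraries lay wholly below Young at 13 members (17.3%, against 17.1% of all regions and 17.2% of start-site regions). They lay wholly above at 7 (9.33%, against 16.9% and 16.8%). Ndufa12 had the lowest p, with a scaled log2 change of -0.96 ± 0.29 (limma adjusted p = 0.737). Ndufs4 came to -0.81 ± 0.27 (limma adjusted p = 0.789). In the other direction, Atp5mpl, a small subunit at the base of complex V, measured 7.90 and 8.17 RPM in Young and 13.9 and 10.3 RPM in Old, higher in both Old libraries, with a scaled change of 0.90 ± 0.28 (limma adjusted p = 0.737) and 0.55 as given (adjusted p = 0.176). Atp5l, another membrane subunit, measured 12.5 and 15.1 RPM and 16.6 and 16.3 RPM, a scaled change of 0.60 ± 0.24 (limma adjusted p = 0.852).

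**Figure D4:**
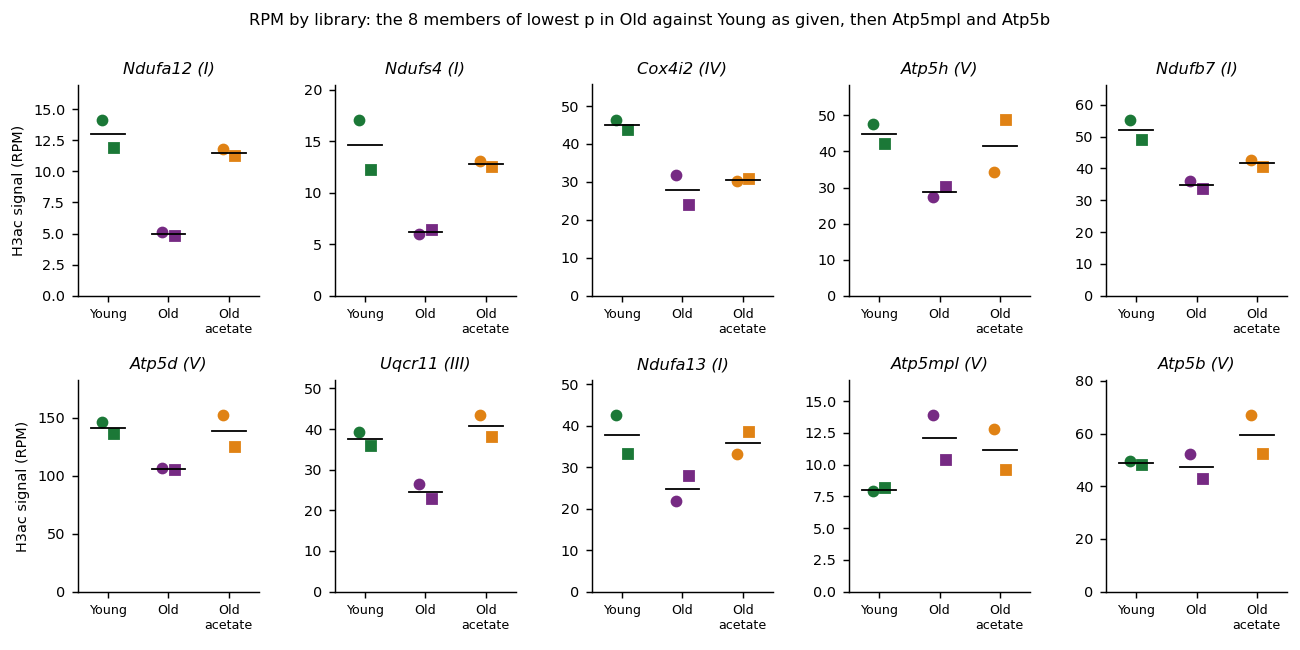
Each panel gives H3ac in RPM for 1 gene by group (circle for replicate 1, square for replicate 2, line for the mean of 2 libraries; axes start at 0 and differ between panels). The first 8 genes are those of lowest p among the members called lower in Old than in Young with the values as given, and in each the Old libraries lie below the Young libraries. Atp5mpl runs the other way, and Atp5b is highest in OldAcetate replicate 1.

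The second comparison, OldAcetate against Old, asks whether acetate changes H3ac at these genes in old cells. On the values as given, the members' median was 13.4 and 13.9 RPM in Old and 17.5 and 14.6 RPM in OldAcetate, so that both OldAcetate libraries were above both Old libraries, the first of them by more. The median log2 change was 0.31 with a replicate SD of 0.11, beside 0.24 over all regions and 0.29 over the start-site regions. It was above zero at 65 of 75 members, beside 20332 of 24431 regions and 9758 of 10877 start-site regions. The OldAcetate libraries lay wholly above the Old libraries at 39 members (52.0%, against 47.1% of all regions and 58.3% of start-site regions). The median change was 0.35 in complex I, 0.21 in complex II, 0.24 in complex III, 0.27 in complex IV and 0.34 in complex V. In 34 regions that hold no other gene's start site it was 0.20, and in the 41 shared regions 0.37, beside 0.28 and 0.30 for start-site regions of 1 gene and of several genes in the whole table.

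With the values as given, 1 member rose by limma in OldAcetate against Old (1.33%, against 0.311% of all regions and 0.524% of start-site regions). This was Uqcr11, whose region also lies at the start site of Mbd3. It measured 26.3 and 22.7 RPM in Old and 43.3 and 38.0 RPM in OldAcetate, a log2 change of 0.72 ± 0.19 (limma adjusted p = 0.0499), beside 39.2 and 35.9 RPM in Young. This call lies at the threshold. It was lost without Old replicate 2 and without either OldAcetate library (adjusted p up to 0.480), with a pseudocount of 0.1 or 1, and in edgeR (adjusted p = 0.0660), which called 0 members, with 27 at an unadjusted p under 0.05. Ndufa12 had the larger difference, from 5.08 and 4.77 RPM to 11.8 and 11.3 RPM (1.15 ± 0.31, limma adjusted p = 0.0570). Ndufs4 went from 6.01 and 6.36 RPM to 13.1 and 12.5 RPM (0.99 ± 0.29, limma adjusted p = 0.0849). In both, OldAcetate lay above Old without overlap, but neither passed the threshold. Cox4i2 stayed beside its Old values, with 31.9 and 23.9 RPM in Old and 30.2 and 30.9 RPM in OldAcetate (0.14 ± 0.19, limma adjusted p = 0.689).

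After scaling, limma called 0 members and 0% of all regions, with 5 members at an unadjusted p under 0.05 (edgeR 0 with 8, DESeq2 0 with 1). The members' median change was 0.07, within the replicate SD of 0.14, and 0.05 over the start-site regions. OldAcetate lay wholly above Old at 16 members (21.3%, against 16.7% of all regions and 21.8% of start-site regions). It lay wholly below at 7 (9.33%, against 17.2% and 12.1%). The lowest p belonged to Ndufa12, with a scaled change of 0.91 ± 0.29 (limma adjusted p = 0.658), and Uqcr11, with 0.48 ± 0.16 (adjusted p = 0.658). Cox8a had 0.63 ± 0.26 and Uqcrc1 -0.66 ± 0.35 (limma adjusted p of 0.768 and 0.814). By complex the scaled median was 0.11 in complex I, where 24 of 34 members were above zero, and 0.10 in complex V (10 of 17). Among all regions 12283 of 24431 were above zero, and among start-site regions 6485 of 10877. Complexes II, III and IV had medians of -0.02, -0.00 and 0.04.

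**Figure D5:**
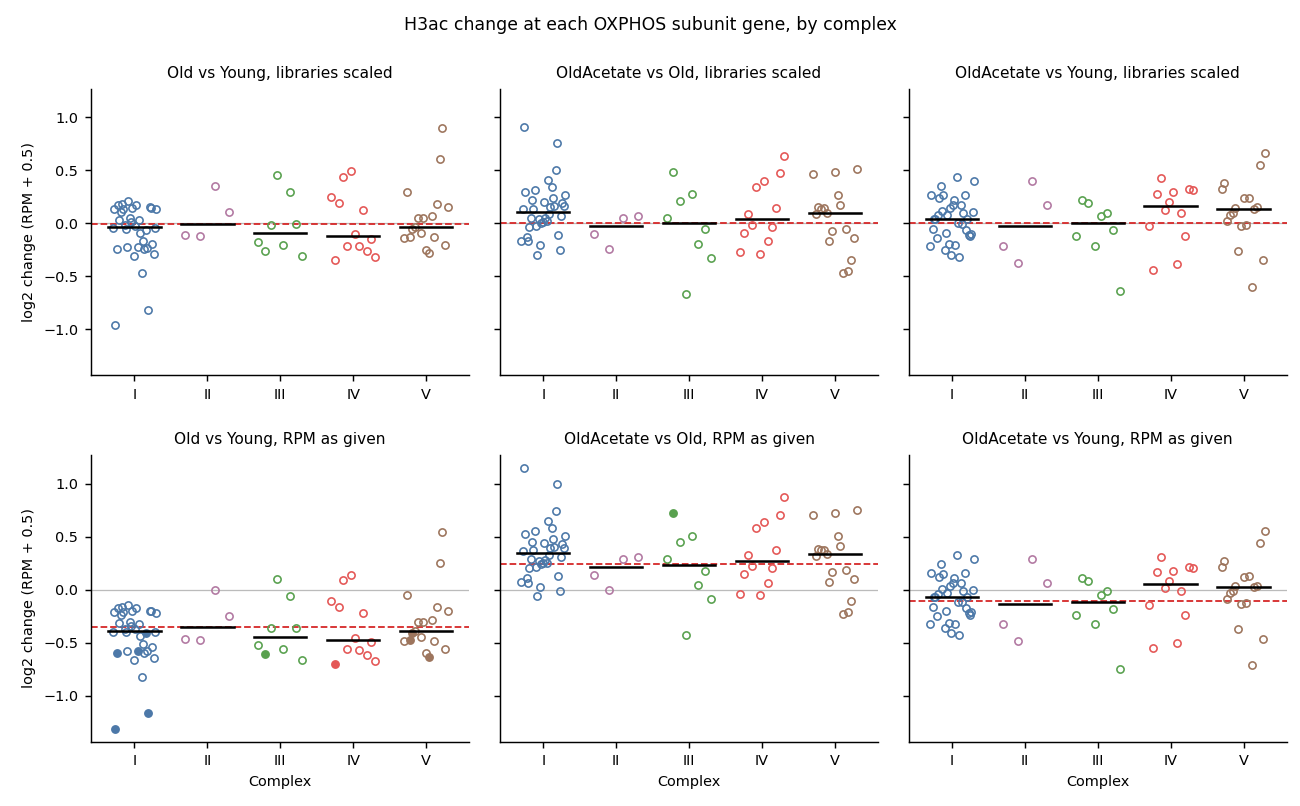
Each point is a member's log2 change, on log2(RPM + 0.5), by complex. Columns are the 3 comparisons, the upper row is after scaling of the libraries and the lower row is as given. Filled points were called by limma, black bars are medians of a complex and the red dashed line is the median of all 24431 regions. Only the lower row holds filled points, 10 in Old against Young and 1 in OldAcetate against Old. The black bars lie on either side of the red line. After scaling, complex IV lies below it in Old against Young (-0.13 against -0.005) and above it in OldAcetate against Young (0.16 against 0.002).

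The third comparison sets OldAcetate against Young and shares its libraries with the other comparisons. On the values as given, limma called 0 members and 0% of all regions lower (5 members at an unadjusted p under 0.05, edgeR 0 with 6). The median change of the members was -0.03, beside -0.11 over all regions and -0.07 over the start-site regions. It was below zero at 43 of 75 members (57.3%, against 69.2% of all regions and 63.1% of start-site regions). Without Young replicate 2 the median was -0.14 and without Young replicate 1 it was 0.022. OldAcetate lay wholly below Young at 18 members (24.0%, against 29.8% of all regions and 24.5% of start-site regions). Cox4i2 had the lowest p, with 46.4 and 43.7 RPM in Young and 30.2 and 30.9 RPM in OldAcetate, a log2 change of -0.55 ± 0.19 (limma adjusted p = 0.741). The next was Uqcrq, a small complex III subunit that binds ubiquinone, with 17.8 and 18.8 RPM and 9.74 and 11.7 RPM (-0.75 ± 0.27, limma adjusted p = 0.741). In both, the groups did not overlap, and the Old values (31.9 and 23.9 RPM and 8.32 and 15.5 RPM) were also below Young.

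After scaling, OldAcetate against Young again gave 0 members by limma and 0% of regions, with 5 at an unadjusted p under 0.05 (edgeR 0 with 8, DESeq2 0 with 0). The members' median change was 0.08, within the replicate SD of 0.14, and 45 of 75 were above zero. Among all regions 12290 of 24431 were above zero, and among start-site regions 6463 of 10877. OldAcetate lay wholly above Young at 13 members (17.3%, against 17.7% of all regions and 23.3% of start-site regions). It lay wholly below at 10 (13.3%, against 18.1% and 12.8%). Atp5b had the lowest p, from 49.7 and 48.2 RPM in Young to 66.9 and 52.1 RPM in OldAcetate, a scaled change of 0.38 ± 0.14 (limma adjusted p = 0.964). Cox4i2 followed with -0.44 ± 0.16 (limma adjusted p = 0.964).

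Other genes around the respiratory chain were measured the same way. Regions were present for 13 of 14 complex I assembly genes (none at Nubpl), 31 of 31 assembly genes of complexes II to V, 12 of 13 regulators (none at Polrmt, the mitochondrial RNA polymerase), 14 of 14 TCA cycle genes and 6 of 6 electron carriers and alternative inputs. With the values as given, the median change from Young to Old was -0.43, -0.34, -0.32, -0.41 and -0.30 in these lists, beside -0.40 at the subunits. The lists are not fully separate from the subunits, since the regulator Gabpa has the region of Atp5j. Of all regions, 9.50% were called lower, and of start-site regions 11.7%. By limma, 2 of 13 complex I assembly genes fell (15.4%), Ndufaf5 (-0.80, adjusted p = 0.0191) and Foxred1 (-0.86, adjusted p = 0.0266). Of the other lists, 3 assembly genes fell (9.68%, namely Surf1, Cox14 and Coa5, all of complex IV). With them fell 1 regulator (8.33%, Hif1a, -0.48, limma adjusted p = 0.0317) and 1 TCA cycle gene (7.14%, Dlst, -0.58, limma adjusted p = 0.0253). These shares were near or below that of all regions. Several of these regions were long, with 23000 bp at Surf1, 24500 bp at Hif1a and 19500 bp at Dlst. Start sites of other genes in the list regions were not counted, so each call is of a region. None of these list genes was called higher, none was called in OldAcetate against Old, where the medians were 0.30, 0.25, 0.27, 0.39 and 0.19, and none was called after scaling by limma, where 0.00819%, 0% and 0% of all regions were called in the 3 comparisons.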

How the data were processed

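H3ac CUT&RUN values for 6 libraries were taken from the table deposited for the series. Per the labels, reads were aligned to mm10 with Bowtie2 and processed with Picard; versions and the peak caller are not given in the sources used here. The table is named for RPKM, but the deposited values are RPM (reads per 1e6 reads of the library): 100% of them are whole multiples of the value of 1 read (tolerance 0.01), and whole read counts were recovered from them. Regions, with bounds in steps of 500 bp, were joined to GENCODE vM21 start sites. The values as log2(RPM + 0.5) were tested with limma 3.58.1 (R 4.3.3) over all 24431 regions, with Benjamini-Hochberg adjustment. They were tested as given and after scaling, which subtracts from each library its median deviation from the region means. edgeR 4.0.16 and DESeq2 1.42.0 on the recovered reads, other pseudocounts, filters, thresholds and leaving out each library were alternatives. The fits were tested on simulated data. With 2 against 2 libraries, an exact permutation test cannot go below p = 0.333. Counting error was taken from read numbers and covers counting only.

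The members and lists were chosen with earlier results of these data known. Named genes were the called members (up to 8 of lowest p per comparison and scaling, otherwise the 2 of lowest p), the densest and least dense member of each complex, genes picked for their role, and every member with no region. Others, such as Ndufs8, Atp5l, Atp5o, Ndufs5 and the members with divergent partners, were named after their values were seen. Values of 1 member and 1 marker gene are not reported here, though both are in the counts. Replicate numbers were checked for pairing; the correlation of same-numbered deviations over all regions was 0.01, -0.03 and -0.04 for the 3 pairs of groups, so the numbers were not used to pair libraries.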

Additional observations from a re-analysis of the deposited data

How the results depend on the processing

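The number of members called with the values as given depended on single libraries. In Old against Young it ran from 0 to 12 when 1 library was left out (10 with all), while the count over all 24431 regions ran from 9 to 3252, and was 1 at a threshold of 0.01. In OldAcetate against Old it ran from 0 to 3 without 1 library (1 with all), and was 0 with a pseudocount of 0.1, 0 with a pseudocount of 1, 0 in edgeR without factors, 0 at a threshold of 0.01 and 2 with the replicate block (Ndufa12 and Uqcr11). With that block, 14 members were called in Old against Young (18.7%, against 13.1% of all regions), including the 10, and it changed no other count of calls. Deviations of same-numbered libraries correlated over all regions by 0.01 at most, and over the members by -0.13 (Young and Old), -0.18 (Young and OldAcetate) and 0.22 (Old and OldAcetate), so that not every pair passed 0.1. The median change as given in OldAcetate against Young ran from -0.14 to 0.022 without 1 library. The median as given in OldAcetate against Old was 0.20 in the 34 regions with no other gene's start site, an alternative chosen after seeing the data. After scaling, the medians without 1 library ran from -0.13 to 0.035 in Old against Young, from -0.016 to 0.16 in OldAcetate against Old and from 0.018 to 0.10 in OldAcetate against Young, and 0 members were called in each. The cause of these shifts was not tested. Of the alternative values for the comparisons, 166 stayed within their limits and 16 did not, and no result changed direction past its threshold. Some of the 166 could not move, such as the median as given in Old against Young without an OldAcetate library. Of the alternative values for single named genes, 99 kept their status, 35 lost the call and 2 gained it. With a median of 41 reads per region and 2 libraries per group, small differences at single members were not detectable.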

Other observations

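The symbol rule kept to autosomes, and 3 further subunit genes on the X chromosome also had start-site regions. Cox7b, a small complex IV subunit, measured 17.1 and 15.1 RPM in Young, 11.6 and 17.5 RPM in Old, and 18.5 and 11.3 RPM in OldAcetate. Ndufa1, an accessory complex I subunit, measured 7.24 and 11.4 RPM, 6.93 and 5.57 RPM, and 9.41 and 8.34 RPM in the same order. Ndufb11, another complex I subunit, measured 8.23 and 13.1 RPM, 8.32 and 8.35 RPM, and 11.1 and 12.5 RPM. Only Ndufa1 had both Old libraries below both Young libraries on the RPM scale, and limma called none of the 3 in any comparison, with the values as given or after scaling.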
